A study of Saccharomyces cerevisiae S288C with 24 samples.

Results

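The 57 genes described here encode proteins of the large (60S) subunit of the yeast cytoplasmic ribosome, from RPL1A to RPL33B. They were taken by systematic name from the deposited table of loci, and all 57 were found there with a successful estimate, among 6905 loci in all. The genes form 25 paralog pairs, in which an A and a B copy encode the same or nearly the same protein, and 7 genes with a single copy (RPL3, RPL5, RPL10, RPL25, RPL28, RPL30 and RPL32). The locus of RPL21A also holds YBR190W, so its values are those of both genes.

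The 60S subunit forms peptide bonds and carries the tunnel through which the new protein leaves the ribosome. Yeast makes its ribosomal proteins from a large set of genes that is switched on and off together: transcription is high while cells grow on glucose and falls when nutrients run out or stress sets in. The factor Rap1 binds many of these promoters, Fhl1 and Ifh1 work there as activators, and Crf1 can take the place of Ifh1 as a co-repressor.

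RNA was sequenced from Saccharomyces cerevisiae BY4741 (WT), a laboratory strain, and from Sc12, a strain of a knockout collection in the same background that lacks TRP5, the gene of tryptophan synthase. Each strain grew in rich glucose medium (YPD) for 24 h, either untreated, with Trp (tryptophan at 200 µg/ml), with IB (isobutanol at 1.2%) or with IB + Trp, and the 8 groups are named by strain and addition. There were 3 libraries in each group and 24 in all. The methods place the 3 replicates at the treatment of the cultures but do not say whether these came from separate precultures, and the error behind each p-value is the spread of these libraries. Sc12 is a single deletion strain, so the deletion and anything else that sets this strain apart cannot be told apart. All groups were harvested once, after 24 h. The paper reports a growth defect under isobutanol, more severe in Sc12 and recovered there with tryptophan. A response to the additions and a difference in growth stage at harvest therefore cannot be told apart.

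The libraries held 5218712 to 14580261 fragments. TRP5 had 2921 to 8481 fragments in the libraries of WT and 0 to 11 in those of Sc12, which fits the labels. The replicate 2 library of WT + IB + Trp stood apart from the other 2 of its group in the genes described here, and the Sc12 + IB libraries stood apart in their TMM factors (0.588 to 0.687, against 0.97 to 1.14 in all other groups). The 10 largest loci held 11.6 to 13.5% of the fragments in Sc12 + IB and 5.46 to 5.69% in Sc12, but also 10.8% in replicate 2 of WT + IB and 12.1% in replicate 2 of WT + IB + Trp. Levels are given as CPM, which are fragments per 1e6 after library size and TMM scaling, with SD and n = 3. Changes are log2 fold changes with their SE, from a quasi-likelihood fit in edgeR across 6346 loci, and a gene was called when its Benjamini-Hochberg adjusted p was below 0.05. A gene that was also changed by more than 1 on the log2 scale is named a DEG, after the thresholds of the study.

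Reads were 50 bases long, so the first question was how far the 2 copies of a pair could be counted apart. Of the 57 genes, 21 shared no coding window of 50 bases with any other place in the genome, while 8 shared more than 50% of them (both copies of RPL1, RPL4, RPL7 and RPL11). Windows were taken within coding exons, so those across a splice junction were not compared. How reads that match several places were counted is not given in the sources used here, so the values of these 8 genes one by one are uncertain. The proteins were identical in 7 of the 25 pairs, and the pair least alike was RPL22, with 84.43% identical residues. The last 60 coding bases of 3 pairs are shown, because these pairs range from copies that share most of their 50-base windows to copies that share none. Sequences are from the RefSeq R64 genome (sacCer3), 5' to 3' on the coding strand. Capitals mark positions that differ between the copies when both are counted back from their last base, without gaps.

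RPL1A (chromosome XVI, 136384-136443, plus strand): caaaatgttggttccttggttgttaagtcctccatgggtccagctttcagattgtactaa
RPL1B (chromosome VII, 255235-255294, plus strand): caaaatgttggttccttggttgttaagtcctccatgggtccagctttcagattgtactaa
RPL15A (chromosome XII, 201976-202035, minus strand): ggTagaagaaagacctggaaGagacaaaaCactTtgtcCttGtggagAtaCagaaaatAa
RPL15B (chromosome XIII, 509734-509793, minus strand): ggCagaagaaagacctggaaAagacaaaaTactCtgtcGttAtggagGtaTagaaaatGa
RPL22A (chromosome XII, 263889-263948, plus strand): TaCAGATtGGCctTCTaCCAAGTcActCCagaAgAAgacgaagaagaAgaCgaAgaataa
RPL22B (chromosome VI, 64243-64302, minus strand): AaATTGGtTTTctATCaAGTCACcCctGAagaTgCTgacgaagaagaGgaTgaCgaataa

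The 2 copies of RPL1 did not differ at any position of this stretch, those of RPL15 differed at 9 and those of RPL22 at 27. The coding sequences of RPL22A and RPL22B are 366 and 369 bases long. Because no gap was allowed, the 27 positions of RPL22 include bases compared out of step and are not a count of substitutions. Over all windows within coding exons the 2 copies of RPL1 shared 80.99%, RPL15 11.84% and RPL22 0%. Because the copies of a pair cannot always be separated, every comparison was also run after the fragments of both copies had been added.

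The promoters were searched for 4 patterns on both strands of the 500 bases before each start codon. The first was the core of the Rap1 site, ACCCNTACA. A match was found for 13 of the 57 genes (22.8%), against 1.26% of 5863 protein-coding genes outside the ribosomal protein lists and 1.8% of all 6000. The 15 matches lay 209 to 461 bases before the start codon, with a median of 345. The letters GATGAG of the PAC element of ribosome assembly genes were found before 22.8% of the 57 genes and before 28.4% of the genes outside the lists. The letters AAAATTTT of the RRPE element were found before 19.3% and 12.4%, and CNCCNNACA, a looser pattern that is 1 base out of step with the Rap1 site, before 19.3% and 11.3%. The Rap1 core was chosen for display after all 4 shares had been seen. A match is a run of letters and not a measured site, and many Rap1 sites do not follow this core. The match and 30 bases on either side are shown for 2 of the genes named below and for both copies of 2 pairs, with the match in capitals, on the strand of the gene. In RPL25 the match is on the opposite strand.

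RPL22B (chromosome VI, 65139-65207, minus strand): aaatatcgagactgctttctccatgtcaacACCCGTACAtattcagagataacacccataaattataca
RPL25 (chromosome XV, 79920-79988, plus strand): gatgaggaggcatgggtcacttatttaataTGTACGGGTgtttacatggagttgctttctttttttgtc
RPL13A (chromosome IV, 308176-308244, plus strand): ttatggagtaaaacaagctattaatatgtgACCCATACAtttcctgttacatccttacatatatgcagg
RPL13B (chromosome XIII, 551500-551568, minus strand): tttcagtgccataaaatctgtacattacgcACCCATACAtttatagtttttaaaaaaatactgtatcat
RPL33A (chromosome XVI, 281738-281806, plus strand): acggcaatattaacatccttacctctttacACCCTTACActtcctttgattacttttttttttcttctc
RPL33B (chromosome XV, 779837-779905, minus strand): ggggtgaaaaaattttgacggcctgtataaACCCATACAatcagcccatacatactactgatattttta

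RPL13A and RPL13B each held 2 matches within this window, and the one nearer to the start codon is shown. In WT + IB against WT, the 13 genes with a match had a median log2 fold change of 1.5 and the 44 without had 1.54.

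The first comparison asked how the large-subunit genes responded to isobutanol in WT. Together they took 0.509 to 0.555% of all fragments in WT and 1.5 to 1.91% in WT + IB, so the groups were far apart. The summed level was 5064 ± 245 CPM in WT and 16380 ± 2620 CPM in WT + IB. Of the 57 genes, 53 rose and 1 fell, while 34.8% of all loci were called higher and 34.6% lower. The median log2 fold change was 1.5, which is 2.83-fold, against -0.003 over all loci. DEGs made up 43 of the genes that rose, against 11.8% of all loci. In bulk RNA, a change in every cell and a change in the number of cells that hold the transcripts cannot be told apart.

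**Figure D1:**
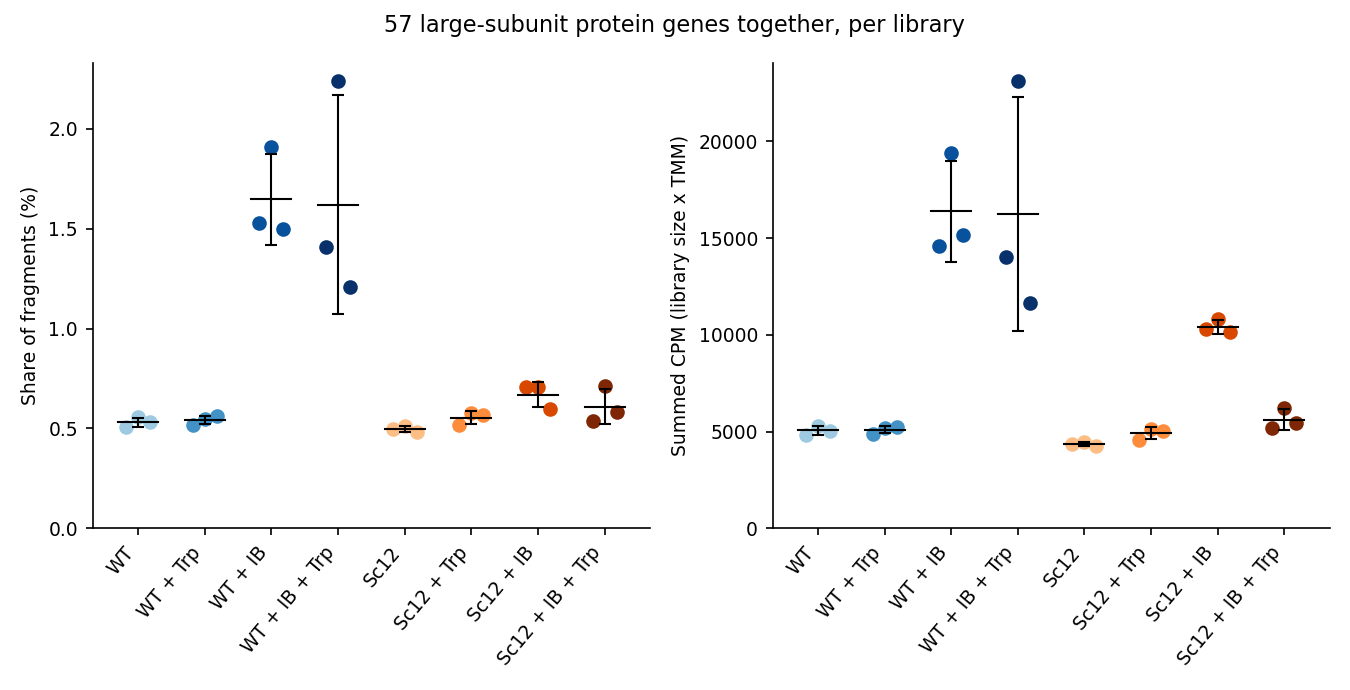
Share of all fragments (left, %) and summed CPM after TMM scaling (right) of the 57 genes in each of the 24 libraries. Points are libraries in order of replicate number, long bars are group means and error bars SD (n = 3). WT + IB and WT + IB + Trp stand above all other groups on both scales, while Sc12 + IB stands clear of Sc12 + IB + Trp only on the right.

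The single-copy genes, whose reads are not split with a paralog, all rose. RPL3 (YOR063W, chromosome XV, 444686-445849) encodes a protein that reaches toward the peptidyl transferase centre. Its level was 369.3, 402.3 and 395.4 CPM in WT and 1935, 3315 and 2632 CPM in WT + IB, and no library of one group reached the range of the other. Its log2 fold change was 2.76 ± 0.24 (SE, adjusted p = 7.08e-10). RPL30 (YGL030W, chromosome VII, 439091-439638), whose protein binds its own transcript and blocks its splicing, had 106.0, 115.2 and 108.8 CPM in WT and 552.2, 883.8 and 581.2 CPM in WT + IB. The log2 fold change of RPL30 was 2.61 ± 0.24 (adjusted p = 1.53e-09). RPL5 (YPL131W, chromosome XVI, 303121-304014), a partner of the 5S rRNA, went from 222.5, 255.5 and 247.3 CPM to 800.7, 1245 and 965.0 CPM. The log2 fold change of RPL5 was 2.05 ± 0.22 (adjusted p = 1.47e-08).

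The other 4 single-copy genes rose less. RPL25 (YOL127W, chromosome XV, 80348-81190) encodes a protein at the mouth of the exit tunnel where factors that receive new proteins dock, and it rose by 1.77 ± 0.15 on the log2 scale (adjusted p = 3.93e-10). RPL32 (YBL092W, chromosome II, 45978-46370) rose by 1.58 ± 0.14 (adjusted p = 6.35e-10). RPL10 (YLR075W, chromosome XII, 282927-283592), a protein that joins the subunit late, in the cytoplasm, rose by 1.57 ± 0.20 (adjusted p = 2.57e-07). RPL28 (YGL103W, chromosome VII, 310967-311927), the gene in which resistance to cycloheximide arises, rose by 1.19 ± 0.13 (adjusted p = 1.73e-08). The groups WT and WT + IB did not overlap in any of the 4, and the share of all loci without overlap was not counted.

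**Figure D2:**
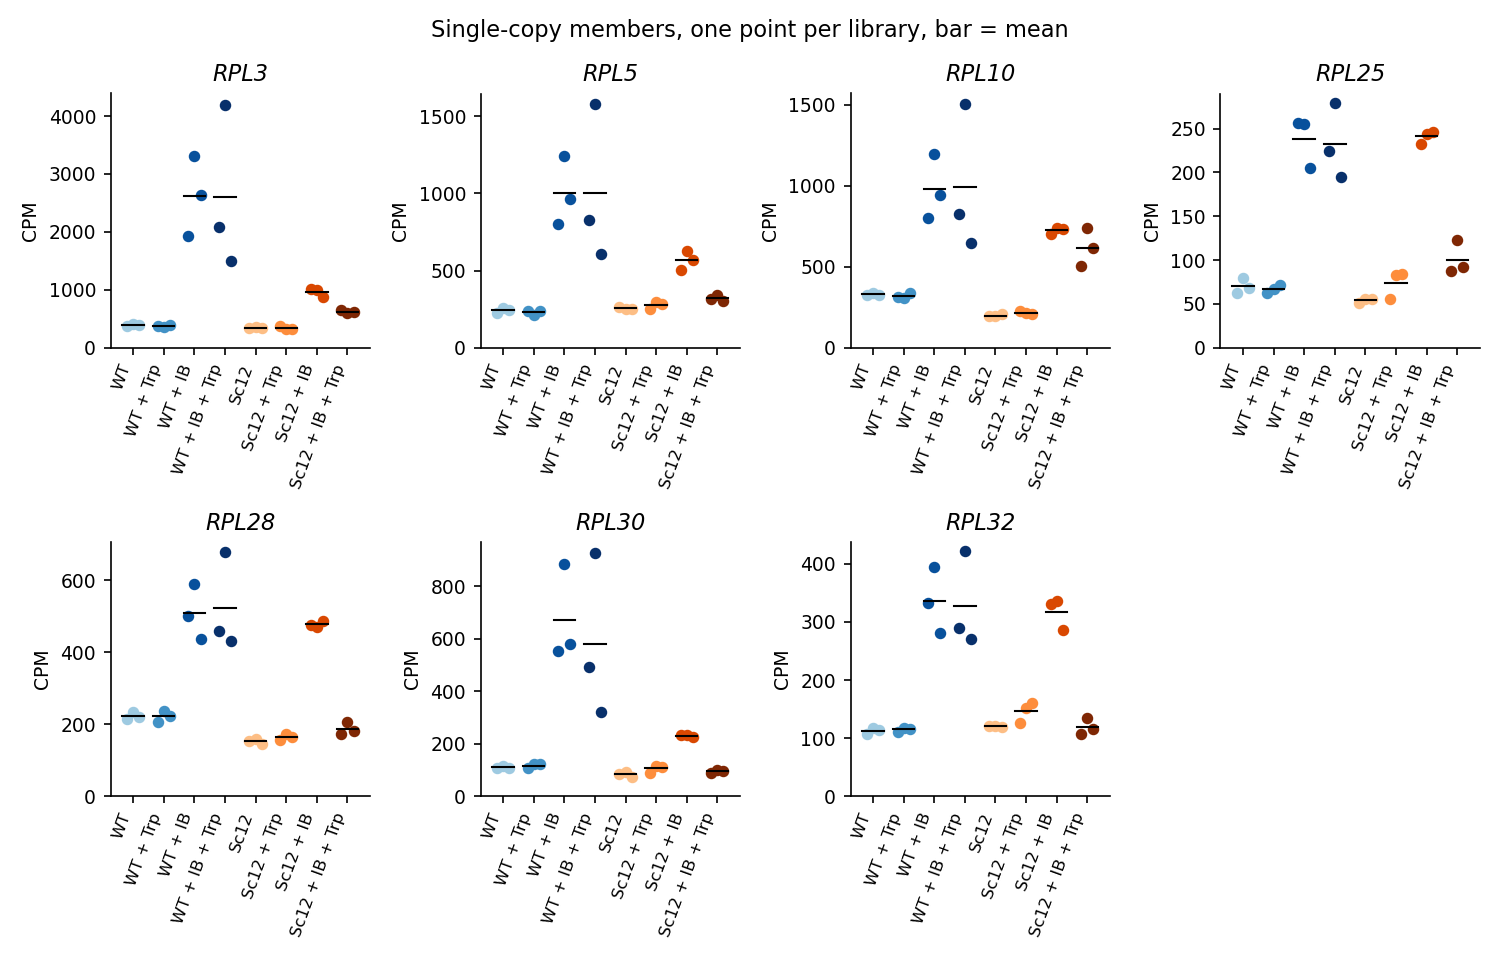
Level in CPM of the 7 single-copy genes in each library, 3 points per group with the mean as a bar, on axes that start at 0. All 7 are high in both WT groups with isobutanol, and RPL25, RPL28 and RPL32 reach the same range in Sc12 + IB, at 233 to 246, 471 to 487 and 286 to 336 CPM.

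By length, the order of the single-copy genes changed with isobutanol. In WT the mean level per kilobase of coding sequence was highest for RPL10 (496) and RPL28 (495), which did not differ beyond their spread, then RPL30 (346), RPL3 (334), RPL32 (287), RPL5 (270) and RPL25 (163). In WT + IB it was highest for RPL3 (2260) and RPL30 (2110), then RPL10 (1470), RPL28 (1130), RPL5 (1120), RPL32 (856) and RPL25 (556). RPL3 and RPL30 again lay within their spread of each other.

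Among all 57 genes, RPL31B had the highest log2 fold change in WT + IB against WT and RPL1B the lowest. RPL31B (YLR406C, chromosome XII, 931065-931755) encodes a protein at the tunnel exit that helps to seat a chaperone complex on the ribosome. It had 17.42, 20.57 and 20.89 CPM in WT and 134.7, 215.5 and 144.4 CPM in WT + IB, a log2 fold change of 3.07 ± 0.26 (adjusted p = 5.77e-10). RPL1B (YGL135W, chromosome VII, 254641-255294), 1 of 2 genes of the protein of the L1 stalk, had 114.8, 109.0 and 104.6 CPM in WT and 72.14, 99.35 and 78.06 CPM in WT + IB. Its log2 fold change was -0.40 ± 0.19 (adjusted p = 0.0619). Each of the 3 values with isobutanol was lower, but the gene was not called. Without replicate 2 of WT + IB it was (-0.55, adjusted p = 0.0213). RPL1A (0.22, adjusted p = 0.182) and RPL22B (0.12, adjusted p = 0.461) were the other 2 genes not called, and the 1 gene that fell was RPL15B.

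By place in the subunit, all 5 genes of the peptidyl transferase centre and the tRNA path (RPL2A, RPL2B, RPL3, RPL10 and RPL28) rose, with a median log2 fold change of 1.59. All 11 genes of the exit tunnel and its mouth rose (median 1.73), as did the 3 genes of the particle around the 5S rRNA (median 1.64, from 0.35 for RPL11A to 2.05 for RPL5). Of the 4 genes of the stalks, RPL12A and RPL12B rose and RPL1A and RPL1B did not pass the test. Of the remaining 34 genes, 32 rose. The places were assigned from general knowledge and not from these data.

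The pair RPL15 was the one whose copies differed most. RPL15 is a protein of the body of the subunit that binds 25S rRNA. RPL15A (YLR029C, chromosome XII, 201976-202590) had 133.4, 145.7 and 144.2 CPM in WT and 433.4, 609.1 and 578.4 CPM in WT + IB, while RPL15B (YMR121C, chromosome XIII, 509734-510348) had 80.13, 79.33 and 72.74 CPM and then 63.89, 58.36 and 59.32 CPM. The ranges did not overlap for either gene, and the 2 copies moved in opposite directions. The log2 fold change was 1.94 ± 0.21 for RPL15A (adjusted p = 3.16e-08) and -0.35 ± 0.07 for RPL15B (adjusted p = 8.4e-05). The A copy held 62.5 to 66.5% of the pair's fragments in WT and 87.2 to 91.3% in WT + IB. The fall of RPL15B was not called by limma on the deposited FPKM (-0.12, adjusted p = 0.811).

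Across the 25 pairs, the copies differed by a median of 0.61 on the log2 scale and by more than 1 in 8 pairs. With fragments added, 24 of the 25 pairs rose and 1, RPL1 (-0.23, adjusted p = 0.181), was not called, a count that does not depend on how reads were split between copies.

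**Figure D3:**
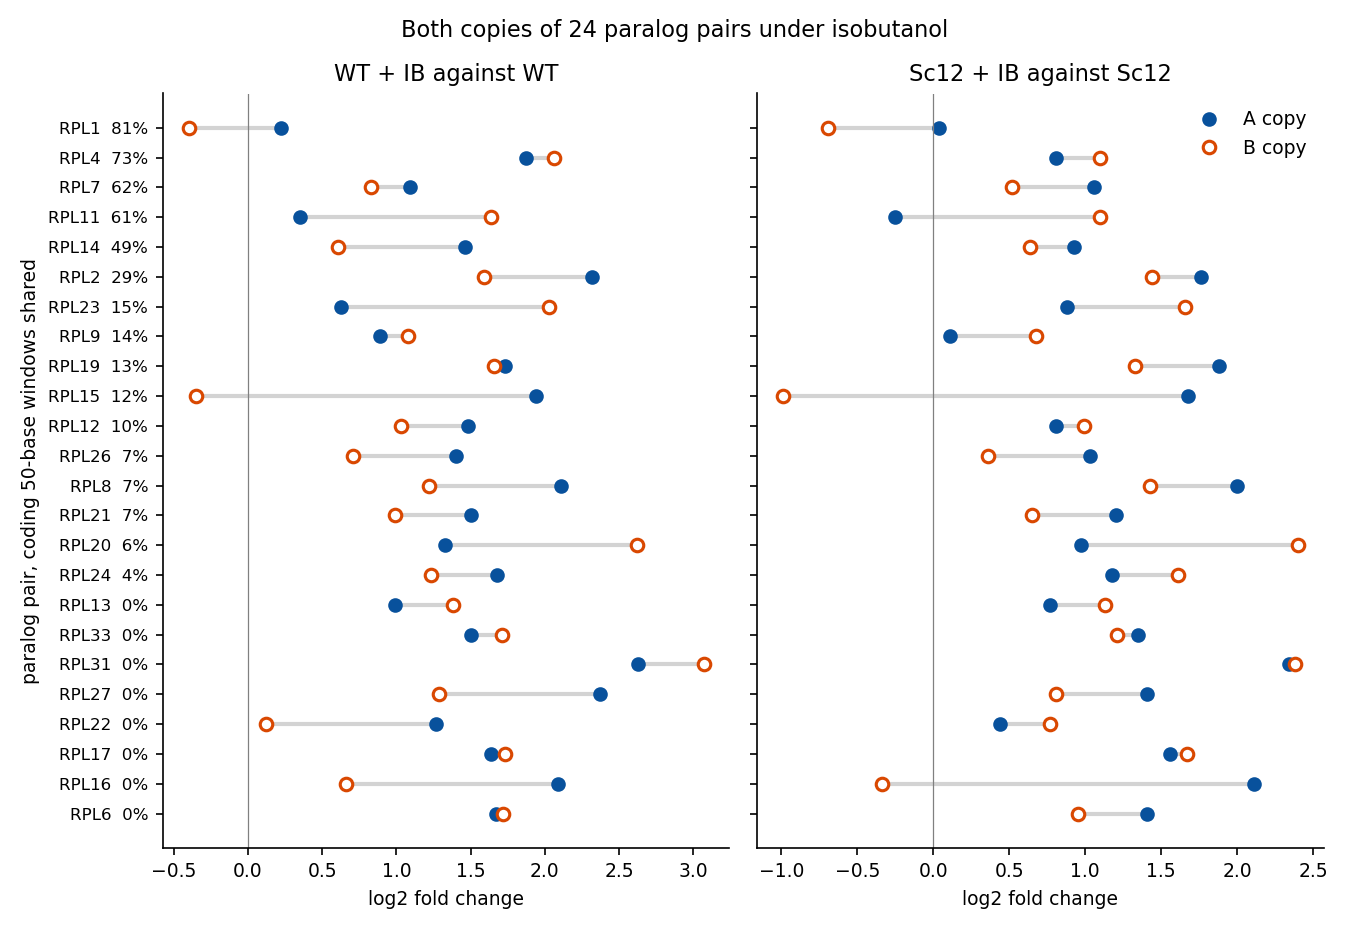
Log2 fold change under isobutanol of the A copy (filled) and the B copy (open) of each of 24 pairs, for WT on the left and Sc12 on the right. Pairs are ordered by the percentage of 50-base coding windows that the copies share, given beside the name. RPL11, RPL15, RPL16 and RPL20 lie far apart in both panels.

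Tryptophan moved none of these genes past the threshold in WT. In WT + IB + Trp against WT + Trp, 52 of 57 rose and 2 fell, against 35% and 33.6% of all loci, with a median of 1.51. The genes that fell were RPL15B (-0.56) and RPL1B (-0.52). In WT + IB + Trp against WT + IB, edgeR called 0 of 57 genes (0 also at an unadjusted p below 0.05, and 0 with DESeq2 and with limma), where 0.0315% of all loci were called. The median was 0.01 and the range -0.41 to 0.18. Here 1 library weighed on the result. The summed level was 14030, 23110 and 11640 CPM in the 3 libraries of WT + IB + Trp, and without replicate 2, the highest, the median became -0.27 and 10 genes were called. In WT + Trp against WT, 0 of 57 genes were called (0 also at an unadjusted p below 0.05, and 0 with DESeq2 and with limma), against 0.0473% of all loci.

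In Sc12 the same question gave a smaller rise. In Sc12 + IB against Sc12, 49 of the 57 genes rose and 3 fell, against 36.4% and 37.1% of all loci, with a median log2 fold change of 1.15 (2.22-fold). DEGs made up 34 of those that rose, against 17.2% of all loci. The summed level went from 4365 ± 117 to 10420 ± 365 CPM. This result depended on the scaling. The TMM factors of Sc12 + IB were 0.588 to 0.687, against 1.13 to 1.14 in Sc12, and the share of fragments rose only from 0.480-0.511% to 0.596-0.707%. When libraries were scaled by their totals alone, the median of all loci was -0.843, that of the 57 genes was 0.32, and 28 genes were called higher and 8 lower. In both scalings the 57 genes lay about as far above the median of all loci. A change of scaling moves all loci of a comparison nearly alike, so this gap cannot tell the scalings apart.

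RPL15B was again the lowest gene and the RPL15 copies were again the furthest apart. RPL15B fell from 125.4, 119.3 and 121.4 CPM in Sc12 to 58.81, 63.04 and 63.17 CPM in Sc12 + IB, by 0.99 ± 0.07 on the log2 scale (adjusted p = 1.37e-11). RPL15A rose from 143.4, 146.2 and 128.5 CPM to 466.9, 463.1 and 410.5 CPM (1.68 ± 0.21, adjusted p = 2.39e-07). The other genes that fell were RPL1B (-0.69, adjusted p = 0.00303) and RPL16B (-0.34, adjusted p = 0.0164). With fragments added, 24 pairs rose and the RPL1 pair fell (-0.49, adjusted p = 0.0077).

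The 7 single-copy genes rose in Sc12 as well. RPL25 went from 51.42, 55.58 and 55.11 CPM to 232.8, 244.5 and 246.4 CPM (2.16 ± 0.15, adjusted p = 1.26e-11). RPL10 rose by 1.87 ± 0.20 (adjusted p = 1.67e-08) and RPL28 by 1.65 ± 0.13 (adjusted p = 7.2e-11). RPL3 rose by 1.47 ± 0.23 (adjusted p = 5.02e-06), RPL30 by 1.46 ± 0.24 (adjusted p = 7.38e-06), RPL32 by 1.40 ± 0.14 (adjusted p = 3.3e-09) and RPL5 by 1.15 ± 0.21 (adjusted p = 4.02e-05). With library totals RPL5 was not called (0.32, adjusted p = 0.134), nor was it with limma (1.17, adjusted p = 0.0757). RPL3 and RPL30, which led in WT, lay near the middle of the 7 here.

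**Figure D4:**
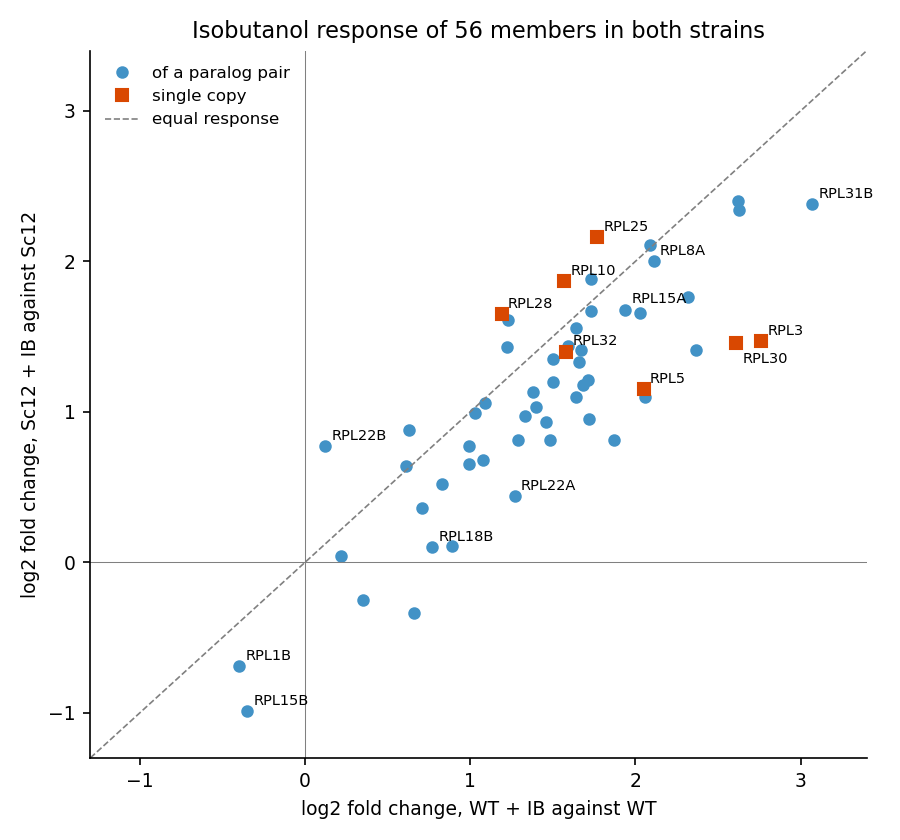
Log2 fold change with isobutanol in Sc12 (vertical) against that in WT (horizontal) for 56 of the genes. Squares are single-copy genes and the dashed line marks equal responses. Most genes lie below the line, RPL3, RPL30 and RPL5 clearly so, and RPL25, RPL28 and RPL22B lie above it.

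Across the 57 genes, the responses of the 2 strains had a Pearson correlation of 0.85 and a Spearman correlation of 0.82, against a Pearson correlation of 0.42 over all 6346 loci. The 2 comparisons share no library, but the points share libraries within each comparison and are not independent.

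Whether the responses differ between the strains was tested as an interaction. The response was lower in Sc12 for 19 of the 57 genes and higher for 3, while 31.5% of all loci had a lower and 31.7% a higher interaction, and the median was -0.33. The count of lower genes was thus near the background. RPL3 (-1.29 ± 0.32, adjusted p = 0.00135), RPL30 (-1.15 ± 0.33, adjusted p = 0.00409) and RPL5 (-0.90 ± 0.30, adjusted p = 0.0112) rose less in Sc12. The genes with a higher response were RPL22B (0.65), RPL28 (0.45) and RPL24B (0.38). With library totals, 53 genes were lower and 0 higher, against a shift of -0.802 in the median of all loci. Without replicate 2 of WT + IB the median was -0.18.

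The level under isobutanol itself was also compared. In Sc12 + IB against WT + IB, 42 of the 57 genes were lower and 2 higher, where 37.0% of all loci were lower and 36.5% higher, and the median log2 fold change was -0.55. RPL30 had the lowest value, with 231.8, 234.8 and 224.3 CPM in Sc12 + IB (-1.55 ± 0.23, adjusted p = 2.47e-06). RPL3 followed at 1016, 990.9 and 872.9 CPM (-1.45 ± 0.23, adjusted p = 5.31e-06). RPL5 was lower by 0.82 ± 0.21 (adjusted p = 0.0012), but limma did not call it (-0.92, adjusted p = 0.169). RPL10 was called at the edge of the threshold (-0.44 ± 0.20, adjusted p = 0.0483), and leaving out any 1 of 5 of the 6 libraries ended the call, with -0.25 without replicate 2 of WT + IB. RPL25 (0.02, adjusted p = 0.928), RPL28 (-0.09, adjusted p = 0.527) and RPL32 (-0.08, adjusted p = 0.582) were not called. With library totals all 3 were lower (-0.64, -0.74 and -0.73), in a comparison whose median over all loci was then -0.667, and 56 of the 57 genes were called lower.

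The pair RPL22 was furthest apart between the strains under isobutanol. RPL22 is a protein that yeast can live without, and its excess blocks the splicing of its own transcripts. RPL22B (YFL034C-A, chromosome VI, 64243-64932) had 38.28, 44.89 and 34.66 CPM in WT + IB and 69.52, 61.77 and 52.32 CPM in Sc12 + IB, with no overlap (0.64 ± 0.14, adjusted p = 0.000213). RPL22A (YLR061W, chromosome XII, 263194-263948) had 105.7, 131.1 and 94.5 CPM in WT + IB and 65.95, 57.67 and 34.98 CPM in Sc12 + IB (-1.06 ± 0.22, adjusted p = 0.000167). The A copy therefore held 73.2 to 74.5% of the pair in WT + IB and 40.1 to 48.7% in Sc12 + IB. These copies share no 50-base window within coding exons, so a read that lies within a coding exon is not split between them. With library totals RPL22B stood at 0.00 (adjusted p = 0.995). Limma called neither RPL22A (-1.12, adjusted p = 0.129) nor RPL22B (0.69, adjusted p = 0.0895).

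Tryptophan did change these genes in Sc12 under isobutanol. In Sc12 + IB + Trp against Sc12 + IB, 47 of the 57 genes fell and 3 rose, while 34.5% of all loci fell and 36.1% rose. The median log2 fold change was -0.98 (0.508-fold), and 28 of those that fell were DEGs, against 14.6% of all loci. The summed level was 5187, 6234 and 5459 CPM in Sc12 + IB + Trp, below each library of Sc12 + IB and above each of Sc12. In shares of fragments the 2 groups overlapped (0.537 to 0.710% and 0.596 to 0.707%). With library totals the median was -0.23, that of all loci 0.773, and 27 genes fell and 9 rose.

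RPL8A (YHL033C, chromosome VIII, 35255-36025), whose protein joins early in the assembly of the subunit, was the lowest. It had 95.03, 123.3 and 135.2 CPM in Sc12 + IB and 27.85, 31.54 and 32.75 CPM with tryptophan (-1.94 ± 0.26, adjusted p = 4.09e-07), close to Sc12 without additions (30.34, 28.66 and 28.91 CPM). The highest was RPL15B, which rose to 98.59, 94.92 and 91.76 CPM (0.63 ± 0.07, adjusted p = 3.82e-08). RPL18B (0.58) and RPL9A (0.62) were the other 2 genes that rose. The call of RPL18B was lost without replicate 2 of Sc12 + IB + Trp (0.31) and with limma (0.51, adjusted p = 0.207). Limma called 0 of the 57 genes higher here, and RPL15B had 0.64 (adjusted p = 0.132).

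Of the single-copy genes, 6 of 7 fell. The values were -1.41 ± 0.14 for RPL32 (adjusted p = 3.11e-09), -1.35 ± 0.13 for RPL28 (adjusted p = 2.11e-09) and -1.28 ± 0.23 for RPL30 (adjusted p = 3.99e-05). RPL25 fell by 1.26 ± 0.15 (adjusted p = 6.48e-08), RPL5 by 0.82 ± 0.21 (adjusted p = 0.00142) and RPL3 by 0.64 ± 0.23 (adjusted p = 0.0154). RPL10 was the exception. It had 704.0, 738.4 and 734.4 CPM in Sc12 + IB and 502.5, 737.4 and 613.9 CPM in Sc12 + IB + Trp, which overlap (-0.23 ± 0.20, adjusted p = 0.294). With library totals RPL3 turned to 0.10 and RPL10 to 0.53, and RPL5 was not called (-0.06, adjusted p = 0.768). Limma did not call RPL3 (-0.38, adjusted p = 0.456), RPL5 (-0.84, adjusted p = 0.22) or RPL32 (-1.38, adjusted p = 0.0797). With fragments added, 21 of the 25 pairs fell and 0 rose.

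The effect of tryptophan under isobutanol was then compared between the strains. The interaction was lower in Sc12 for 43 of the 57 genes and higher for 2 (RPL15B and RPL9A), against 31.5% and 30.3% of all loci, with a median of -0.99. Among the single-copy genes it passed the test for RPL28 (-1.39 ± 0.18, adjusted p = 4.76e-07), RPL32 (-1.37 ± 0.19, adjusted p = 1.45e-06), RPL25 (-1.23 ± 0.20, adjusted p = 1.82e-05), RPL30 (-1.06 ± 0.32, adjusted p = 0.00663) and RPL5 (-0.82 ± 0.30, adjusted p = 0.0198). It did not for RPL3 (-0.62, adjusted p = 0.0969) and RPL10 (-0.25, adjusted p = 0.455). With library totals, 20 genes were lower and 8 higher.

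Fed with tryptophan, Sc12 gave calls in both directions under isobutanol. In Sc12 + IB + Trp against Sc12 + Trp, 14 of the 57 genes were higher and 15 lower, against 35.3% and 34.1% of all loci, and the median was -0.06. RPL10 was the highest at 1.52 ± 0.20 (adjusted p = 5.06e-07), from 227.4, 211.8 and 206.5 CPM in Sc12 + Trp. RPL4A (0.96) and RPL3 (0.86, adjusted p = 0.00197) were also higher. The lowest were RPL1B (-1.33, adjusted p = 2.44e-06), RPL16B (-1.18) and both copies of RPL22 (-0.98 for RPL22A and -0.99 for RPL22B).

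With both additions the strains were far apart. In Sc12 + IB + Trp against WT + IB + Trp, 52 of the 57 genes were lower and 1 higher, where 37.1% of all loci were lower and 35.7% higher. The median was -1.46, and 46 were DEGs that were lower, against 12.2% of all loci. RPL8A had -2.82 ± 0.26 (adjusted p = 1.3e-09) and RPL30 -2.61 ± 0.24 (adjusted p = 1.73e-09). The 1 gene that was higher was RPL15B (0.76 ± 0.07, adjusted p = 1.58e-09). With fragments added, all 25 pairs were lower. Without replicate 2 of WT + IB + Trp the median was -1.15 and 51 genes were called.

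**Figure D5:**
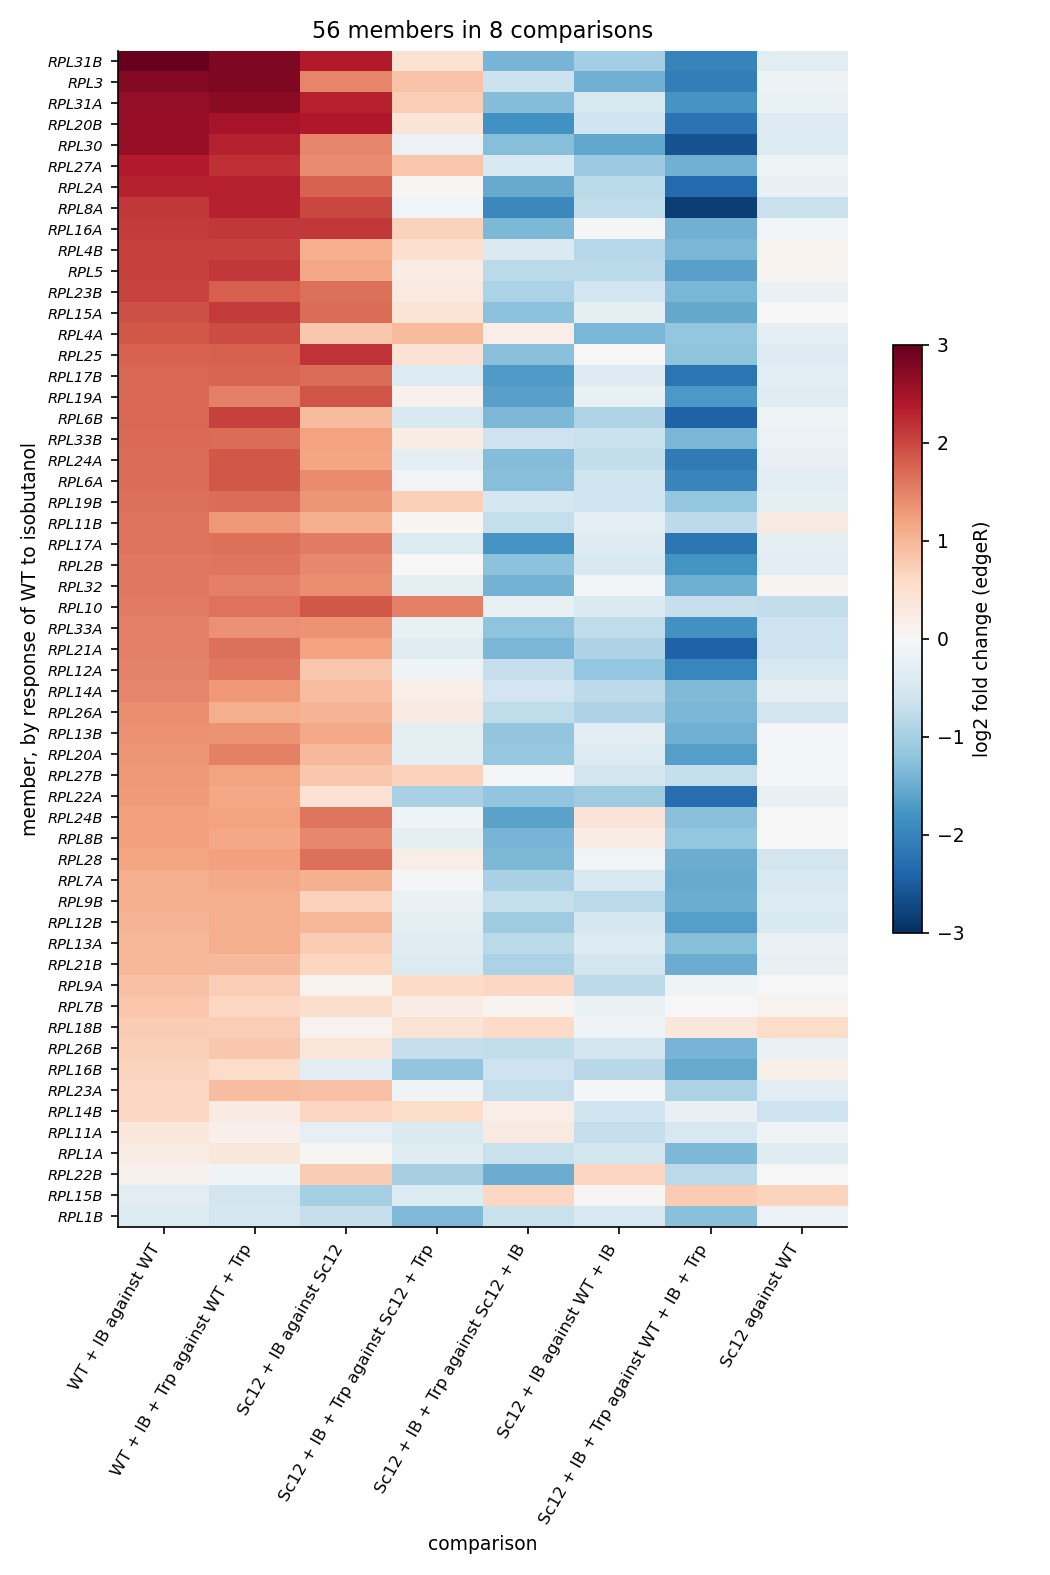
Log2 fold change of 56 of the genes (rows, ordered by WT + IB against WT) in 8 comparisons (columns), red for higher and blue for lower. The columns of both WT comparisons and of Sc12 + IB against Sc12 are mostly red, with medians over all 57 genes of 1.5, 1.51 and 1.15. Sc12 + IB + Trp against Sc12 + Trp is mixed (-0.06), and RPL15B near the foot goes against the other genes.

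Without isobutanol the differences between the strains were smaller. In Sc12 against WT, 13 of the 57 genes were lower and 2 higher, against 22.3% and 19.0% of all loci, and the median was -0.23. The count of lower genes was thus near the background and that of higher genes below it. The count of genes called in either direction depended on the fit: it was 15 here, 35 with only the 2 groups in the fit and 1 with limma on the deposited FPKM. The genes that were higher were RPL15B (0.66 ± 0.07, adjusted p = 1.53e-07) and RPL18B (0.55 ± 0.18, adjusted p = 0.0159). The call of RPL18B was lost without replicate 1 of WT (0.49), replicate 3 of WT (0.49) or replicate 2 of Sc12 (0.44), and limma called neither RPL18B (adjusted p = 0.0668) nor RPL15B (adjusted p = 0.175). RPL10 (-0.74 ± 0.20, adjusted p = 0.00491) and RPL28 (-0.54 ± 0.13, adjusted p = 0.00167) were the single-copy genes called, both lower. RPL25 (-0.38, adjusted p = 0.0505), RPL30 (-0.40, adjusted p = 0.181), RPL3 (-0.16, adjusted p = 0.599), RPL5 (0.08, adjusted p = 0.793) and RPL32 (0.09, adjusted p = 0.618) were not. Without replicate 1 of WT, RPL25 was called (-0.46, adjusted p = 0.039).

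With tryptophan in the medium, 8 of the 57 genes were lower and 3 higher in Sc12 + Trp against WT + Trp, against 21.1% and 19.7% of all loci. Tryptophan alone did not move the genes of Sc12 past the threshold. In Sc12 + Trp against Sc12, 0 of 57 were called (9 at an unadjusted p below 0.05, 0 with DESeq2 and 0 with limma), against 0.457% of all loci, with a median of 0.18.

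The proteins of the small (40S) subunit and the large-subunit genes outside the 57 gave similar counts. In WT + IB against WT, 53 of 56 genes of the 40S subunit rose (median 1.48), and so did 22 of 24 further large-subunit genes (median 1.65), where 34.8% of all loci rose. In Sc12 + IB + Trp against Sc12 + IB, 53 of 56 genes of the 40S subunit fell (median -1), and so did 17 of the 24 (median -0.95), where 34.5% of all loci fell. Of 23 factors that assemble and export the 60S subunit, 9 rose and 3 fell in WT + IB against WT (median 0.12), against 34.8% and 34.6% of all loci. In Sc12 + IB against Sc12, 4 of the 23 rose and 8 fell (median -0.18), against 36.4% and 37.1%. In Sc12 against WT, 18 were higher and 0 lower (median 0.50), against 19% and 22.3%. All counts of these lists are given with TMM scaling, and the differences between lists were not tested.

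A list of 13 genes tied to the control of ribosomal protein genes held activators, the co-repressor CRF1 and the ribosome-bound STM1. Its counts therefore mix genes that act in opposite ways. Of the 13, 8 fell and 2 rose in WT + IB against WT (median -0.54), against 34.6% and 34.8% of all loci. In Sc12 + IB against Sc12, 4 fell and 6 rose (median -0.03), against 37.1% and 36.4%. In WT + IB against WT, IFH1 fell by 1.35 ± 0.11 (adjusted p = 1.86e-10), FHL1 by 0.54 ± 0.09 (adjusted p = 2.27e-05) and SFP1, a nutrient-responsive activator, by 0.90 ± 0.10 (adjusted p = 3.1e-08). In Sc12 + IB against Sc12, IFH1 fell by 0.45 ± 0.11 (adjusted p = 0.000577) and FHL1 by 0.70 ± 0.10 (adjusted p = 6.79e-07), while SFP1 rose by 0.28 ± 0.10 (adjusted p = 0.015). IFH1 shares its locus with YLR222C-A. CRF1, the co-repressor, fell by 0.58 ± 0.14 in WT (adjusted p = 0.000918) but rose by 2.71 ± 0.15 in Sc12 + IB against Sc12 (adjusted p = 5.78e-14) and fell by 2.50 ± 0.14 when tryptophan was added (adjusted p = 2.25e-13). RAP1 had -0.06 in WT (adjusted p = 0.592) and rose by 0.79 ± 0.10 in Sc12 (adjusted p = 2.46e-07). HMO1, an architectural protein of these promoters, was called in neither (-0.15, adjusted p = 0.201, and -0.11, adjusted p = 0.366). STM1, whose protein sits on idle ribosomes, rose by 1.46 ± 0.11 in WT (adjusted p = 1.22e-10) and by 0.77 ± 0.11 in Sc12 (adjusted p = 2.3e-06). The values of these regulators are given with TMM scaling only. In Sc12 + IB against Sc12 the median of all loci was -0.02 with TMM and -0.843 with library totals. Rises of the size seen for RAP1, SFP1 and STM1 in Sc12 therefore depend on the scaling. The part of these transcripts in the changes of the 57 genes was not tested.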

How the data were processed

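RNA of 24 yeast libraries, 3 in each of 8 groups, was analysed. The authors made 50-base single-end reads with bcl2fastq 2.18, trimmed them with Trimmomatic 0.39, aligned them to sacCer3 with TopHat2 2.1.1 and estimated values per locus with Cufflinks 2.2.1. The annotation is not given in the sources used here. For each library the authors deposited an estimated count of fragments at every locus, unscaled, of which 98.83% differed from a whole number by at most 0.001. The deposited FPKM are the authors' values scaled by length and library size. The authors' own fold changes and tests, and 2 further columns of per-sample values, were not used. Replicates 0 to 2 of the tables were read as replicates 1 to 3 of the labels.

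Of 6929 loci, 24 had a failed estimate. Estimated counts, rounded, went into edgeR 4.0.16 (R 4.3.3) with TMM scaling and 8 group means, in 12 comparisons and 2 interactions. The 6346 loci whose FPKM averaged 1 or more were tested, with 16 residual degrees of freedom and a biological coefficient of variation of 10.4%. The fit was tested on simulated data. An exact permutation of 3 libraries against 3 cannot go below a p of 0.1, so single genes carry p-values of edgeR. Members and gene lists were chosen with earlier results of these data known. Named with values were, in 5 comparisons, the highest gene, the lowest gene and the pair furthest apart, the single-copy genes and 7 regulators. Of these, 1 gene and its pair are counted but not reported here by value. Other genes are named where a count is small and were chosen after their values were seen. Replicate numbers were not used as pairs in the main fit: in 0 of 12 comparisons did every same-numbered pair correlate above 0.1. The replicate 2 libraries of WT + IB + Trp and WT + IB did depart from their group means alike, with a correlation of 0.6. Alternatives used library totals, RLE, TMM without ribosomal protein loci, other filters, DESeq2 1.42.0, limma 3.58.1 on log2(FPKM + 1), a replicate block, fewer groups and fewer libraries. Of 4 promoter patterns searched, all shares are given. Sequences and exons came from RefSeq R64, where 5366 of 5846 single-gene loci had the same start and end. Files were read with Python 3.11.15 and pandas 2.3.3, sequences were aligned with biopython 1.88 and figures drawn with matplotlib 3.10.9.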

Additional observations from a re-analysis of the deposited data

Results flagged for a closer look

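The response to isobutanol differed between the strains by the interaction test for 19 genes that were lower in Sc12 and 3 that were higher, against 31.5% and 31.7% of all loci, so the count of lower genes was near the background. Among the single-copy genes these were RPL3 (-1.29), RPL5 (-0.90), RPL30 (-1.15) and, in the other direction, RPL28 (0.45). The effect of tryptophan under isobutanol differed for 43 genes that were lower in Sc12 and 2 that were higher, against 31.5% and 30.3% of all loci. The single-copy genes were RPL5 (-0.82), RPL25 (-1.23), RPL28 (-1.39), RPL30 (-1.06) and RPL32 (-1.37). With library totals in place of TMM factors, which were 0.588 to 0.687 in Sc12 + IB, the first gave 53 lower and 0 higher and the second 20 lower and 8 higher. Without the high replicate 2 of WT + IB + Trp, the median of the second moved from -0.99 to -0.67.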

How the results depend on the processing

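Some counts of genes called, higher and lower together, stayed within 1.5 times under every alternative run. They were those of both WT responses to isobutanol, of Sc12 + IB against Sc12 and of Sc12 + IB + Trp against WT + IB + Trp. By direction, Sc12 + IB against Sc12 did change: library totals gave 28 higher and 8 lower in place of 49 and 3. The median there moved from 1.15 to 0.32. Limma on log2(FPKM + 1) called 14 genes in Sc12 + IB + Trp against Sc12 + Trp, 31 in Sc12 + IB + Trp against Sc12 + IB, 1 in Sc12 against WT, 0 in Sc12 + Trp against WT + Trp, 11 in Sc12 + IB against WT + IB, 2 in the strain by isobutanol interaction and 13 in the strain by tryptophan interaction. In replicate 3 of WT, the deposited FPKM per CPM of single genes ran from 0.0639 to 2.56 times the gene's median over libraries. With only the groups compared in the fit, 35 genes were called in Sc12 against WT and 21 in Sc12 + Trp against WT + Trp. With library totals, 53 were called in the strain by isobutanol interaction and 28 in the strain by tryptophan interaction, and RPL3 (0.10) and RPL10 (0.53) in Sc12 + IB + Trp against Sc12 + IB and RPL25 (-0.64) in Sc12 + IB against WT + IB changed direction. Beyond the scaling and the fewer libraries themselves, the cause was not tested. Both copies of a pair were called in 1 direction for 7 pairs in Sc12 + IB + Trp against Sc12 + Trp, 1 in Sc12 against WT and 0 in Sc12 + Trp against WT + Trp, where summed fragments called 11, 7 and 2.

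Leaving out each library in turn gave 0 to 10 genes in WT + IB + Trp against WT + IB, 0 to 1 in Sc12 + Trp against Sc12 and 7 to 10 in Sc12 + Trp against WT + Trp. In the second the 1 call came without Sc12 + Trp replicate 1, and in the third the count of 7 came without WT + Trp replicate 3. With a replicate block, 55 genes were called in WT + IB against WT, 53 in Sc12 + IB against Sc12 and 20 in Sc12 against WT. Without Sc12 replicate 3 and Sc12 + Trp replicate 1, which the labels call make-up data, 51 were called in Sc12 + IB against Sc12. Of 785 values of named genes, under alternatives and with single libraries left out, 739 counted as unchanged. These kept their call, and a change of sign was disregarded where neither fit called the gene.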
